A study of Mus musculus with 18 samples.

Results

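The genes described here are 30 genes of cholesterol and fatty acid synthesis, chosen by name from 23420 genes counted in 18 RNA-seq libraries of NIH-3T3 cells, a mouse embryonic fibroblast line. They comprise 3 regulators (Srebf1, Srebf2 and Insig1), the sterol carrier Stard4 and 7 genes of the mevalonate pathway (Acat2, Hmgcs1, Mvk, Pmvk, Mvd, Idi1 and Fdps). A further 11 genes make squalene and carry it to cholesterol (Fdft1, Sqle, Lss, Cyp51, Tm7sf2, Msmo1, Nsdhl, Hsd17b7, Ebp, Sc5d and Dhcr7). The others are 4 genes of fatty acid synthesis (Acly, Acaca, Fasn and Elovl6) and 4 desaturases (Scd1, Scd2, Fads1 and Fads2). The study compared wild type (WT) cells with Nrf1 knockout (Nrf1KO) cells, an established line made with CRISPR/Cas9, so that all knockout libraries came from 1 line. Each line received DMSO, the solvent, or 200 nM carfilzomib (CFZ), an irreversible proteasome inhibitor, for 6 h or for 24 h. Each of the 6 groups held 3 libraries. The time spent in DMSO was not given in the sources used here, so drug exposure and time in culture cannot be told apart. All 30 genes passed the filter on low counts, which left 11762 genes for testing.

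Cholesterol is built from acetyl-CoA through mevalonate and isoprenoid pyrophosphates to squalene, and squalene is then closed into a ring and trimmed, reduced and desaturated to cholesterol. The transcription factor SREBP2, encoded by Srebf2, drives most of these enzymes, while SREBP1, encoded by Srebf1, acts more on fatty acid synthesis. Both are made as precursors in the endoplasmic reticulum membrane, where SCAP escorts them to the Golgi for cleavage when sterols are scarce and INSIG proteins hold them back when sterols are plentiful. Insig1 is itself a target of the SREBPs, as is Srebf2. Nrf1, encoded by Nfe2l1, is also an endoplasmic reticulum protein; it is best known for inducing proteasome subunit genes when the proteasome is inhibited, and it has been described as a cholesterol sensor.

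Promoter windows of 300 bases, from 250 before to 50 after a transcription start, were held in RefSeq (GRCm38.p6) for 23 of the 30 genes, in 28 windows; Stard4, Fdps, Fdft1, Sqle, Scd1, Scd2 and Fads1 had no entry. The 150 bases upstream of the start are printed for 6 genes of different roles: 3 sterol enzymes that were high at 6 h and low at 24 h, Insig1, Srebf2, and the fatty acid elongase gene Elovl6. Capitals mark any match, on either strand, to a sterol regulatory element (TCACNCCAC), a CCAAT box (CCAAT, which reads ATTGG on the other strand), an E-box (CACGTG) or an antioxidant response element core (TGACNNNGC).
Hmgcs1, chr13:119690201-119690350, + strand: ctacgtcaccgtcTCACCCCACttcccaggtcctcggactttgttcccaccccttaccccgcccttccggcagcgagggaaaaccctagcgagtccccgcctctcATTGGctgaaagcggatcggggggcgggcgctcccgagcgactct
Idi1, chr13:8885456-8885605, + strand: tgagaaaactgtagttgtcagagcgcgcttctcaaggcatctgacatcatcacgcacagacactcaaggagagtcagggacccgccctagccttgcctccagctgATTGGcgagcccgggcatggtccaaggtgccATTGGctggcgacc
Cyp51, chr5:4104698-4104847, - strand: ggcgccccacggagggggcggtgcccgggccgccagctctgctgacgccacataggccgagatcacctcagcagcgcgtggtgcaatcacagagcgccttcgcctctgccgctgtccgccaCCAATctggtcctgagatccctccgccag
Insig1, chr5:28071262-28071411, + strand: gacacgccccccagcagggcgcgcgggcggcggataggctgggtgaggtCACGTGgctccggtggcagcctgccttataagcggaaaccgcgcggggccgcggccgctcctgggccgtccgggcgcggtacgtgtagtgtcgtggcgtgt
Srebf2, chr15:82147119-82147268, + strand: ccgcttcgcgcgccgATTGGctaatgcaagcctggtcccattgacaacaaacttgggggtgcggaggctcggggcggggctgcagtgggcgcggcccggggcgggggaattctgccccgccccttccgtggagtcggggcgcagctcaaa
Elovl6, chr3:129532236-129532385, + strand: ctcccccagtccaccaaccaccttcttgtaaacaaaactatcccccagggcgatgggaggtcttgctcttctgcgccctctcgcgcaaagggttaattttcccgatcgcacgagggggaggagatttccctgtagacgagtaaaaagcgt
No capitals overlap one another in these stretches, and the Elovl6 stretch holds none of the 4 motifs. Across the full windows, CCAAT was found in 17 of the 18 genes of regulation and sterol synthesis that had a window (78.3% of their 23 windows) and in 2 of 5 genes of fatty acid synthesis and desaturation, against 37.4% of all 32851 windows. The sterol regulatory element, searched only as TCACNCCAC, was matched only in Hmgcs1 among the 23 genes, and in 1.24% of all windows. The E-box was found in Insig1, Hsd17b7, Sc5d and Dhcr7 (7.15% of all windows), and the antioxidant response element core in Mvk, Pmvk, Hsd17b7 and Dhcr7 (12.4% of all windows). These are exact letter matches in a short window and do not show binding. A missing match does not show that an element is absent, because variant forms were not searched.

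Nfe2l1, the targeted gene, was measured first as a check of the labels. In WT cells it averaged 448 ± 9.87 CPM (SD, n = 3) with DMSO, 642 ± 12.4 CPM (SD, n = 3) at 6 h and 565 ± 13.4 CPM (SD, n = 3) at 24 h, where CPM is the standard depth-scaled count, here with library sizes scaled by the trimmed mean of M values (TMM). In Nrf1KO cells it averaged 180.1 ± 5.27 CPM (SD, n = 3), 419 ± 7.19 CPM (SD, n = 3) and 204 ± 4.45 CPM (SD, n = 3). Every Nrf1KO library lay below every WT library in all 3 treatments. Total counts ran from 8333148 to 23917081 per library, and all 18 libraries were closest to a library of their own group. All 8 fibroblast markers were detected, and their summed level ran from 31400 to 34250 CPM in WT DMSO libraries, from 8108 to 8399 CPM in WT at 24 h, from 26320 to 32520 CPM in Nrf1KO DMSO libraries and from 10710 to 12750 CPM in Nrf1KO at 24 h. Col1a1, Col1a2, Fn1 and Vim had the highest levels of the 8 with DMSO, so the sum mostly follows them. In WT all 8 averaged lower at 24 h than with DMSO. In Nrf1KO, Vim averaged 3398 CPM with DMSO and 3451 CPM at 24 h, and Pdgfra 264 and 284 CPM, while the other fibroblast markers averaged lower. The part of these lower levels in the results at 24 h was not tested. Among 8 adipocyte markers, Lpl held nearly all the signal (summed levels of 78.4 to 214 CPM), and Plin1, Cebpa and Lep were at 0 in all libraries. Leukocyte and epithelial markers summed to at most 10.1 and 13.03 CPM, but differed between groups. Leukocyte sums ran from 0.659 to 1.06 CPM in WT DMSO libraries and from 9.45 to 10.1 CPM in WT at 24 h. In Nrf1KO they ran from 1.735 to 1.973 and from 6.41 to 6.76 CPM. Epithelial sums fell from between 5.905 and 6.36 CPM with DMSO to at most 0.813 CPM at 24 h in WT. In Nrf1KO they fell from between 10.82 and 13.03 CPM to at most 0.698 CPM. In bulk RNA, fewer cells of a type and less RNA per cell cannot be told apart.

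With CFZ, the sterol and fatty acid synthesis genes were mostly lower at 24 h in both lines, after changes in both directions at 6 h. In WT cells at 24 h, 28 of the 30 genes fell and 2 rose (40.5% and 43.2% of all genes tested), with a median log2 fold change of -1.01 against 0.02 over all genes. The fall was at least 2-fold for 16 of them, against 14.5% of all genes. In Nrf1KO cells at 24 h, 26 fell, 3 rose and 1 did not pass the test (41.1% and 44.4% of all genes fell and rose), with a median of -1.01 against 0.03, and 15 fell at least 2-fold, against 15.2% of all genes. The 6 h and 24 h comparisons of a line share its DMSO libraries. Unless a fold is named, changes are given as log2 fold changes against DMSO, with the SE of the fit.

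At 6 h in WT cells, 15 genes rose and 8 fell, where 35.6% and 36.2% of all genes did, and the median was 0.10. In Nrf1KO cells at 6 h, 17 rose and 6 fell, where 34.5% and 35.0% of all genes did, and the median was 0.16. None of the 30 genes changed 2-fold at 6 h in either line. Of all 11762 genes, 468 were higher and 665 lower by this much in WT, and 388 and 501 in Nrf1KO. The 6 h counts depended on how libraries were scaled. Scaling by the upper quartile or by library size alone moved the median of all genes by -0.11 and -0.13 in WT at 6 h, by -0.14 and -0.10 in WT at 24 h, by -0.07 and -0.11 in Nrf1KO at 6 h, and by -0.11 and -0.18 in Nrf1KO at 24 h. With both of these scalings, 13 of the genes rose and 12 fell in WT at 6 h, and the median of the genes turned to -0.0081 and -0.03. In Nrf1KO at 6 h the split became 14 to 8 with the upper quartile and 14 to 12 with library size. Over all 11762 genes, 3274 rose and 5373 fell in WT at 6 h with the upper quartile. With library size these counts were 3087 and 5623. In Nrf1KO at 6 h, 3376 of all genes rose and 4838 fell with the upper quartile, and 3036 and 5298 with library size. Of all genes called in WT at 6 h, 49.6% were higher, against 37.9% and 35.4% with these scalings, and for Nrf1KO with library size the shares were 49.7% and 36.4% at 6 h and 52.0% and 41.6% at 24 h.

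Calls with a change of at least 1.5-fold were fewer. At 6 h, 4 genes were higher and 1 lower by this much in WT (10.9% and 14.0% of all genes), and 4 were higher and 1 lower in Nrf1KO (9.84% and 11.7%). At 24 h, 0 were higher and 22 lower in WT (22.7% and 24.6%), and 0 were higher and 19 lower in Nrf1KO (23.9% and 24.9%).

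**Figure D1:**
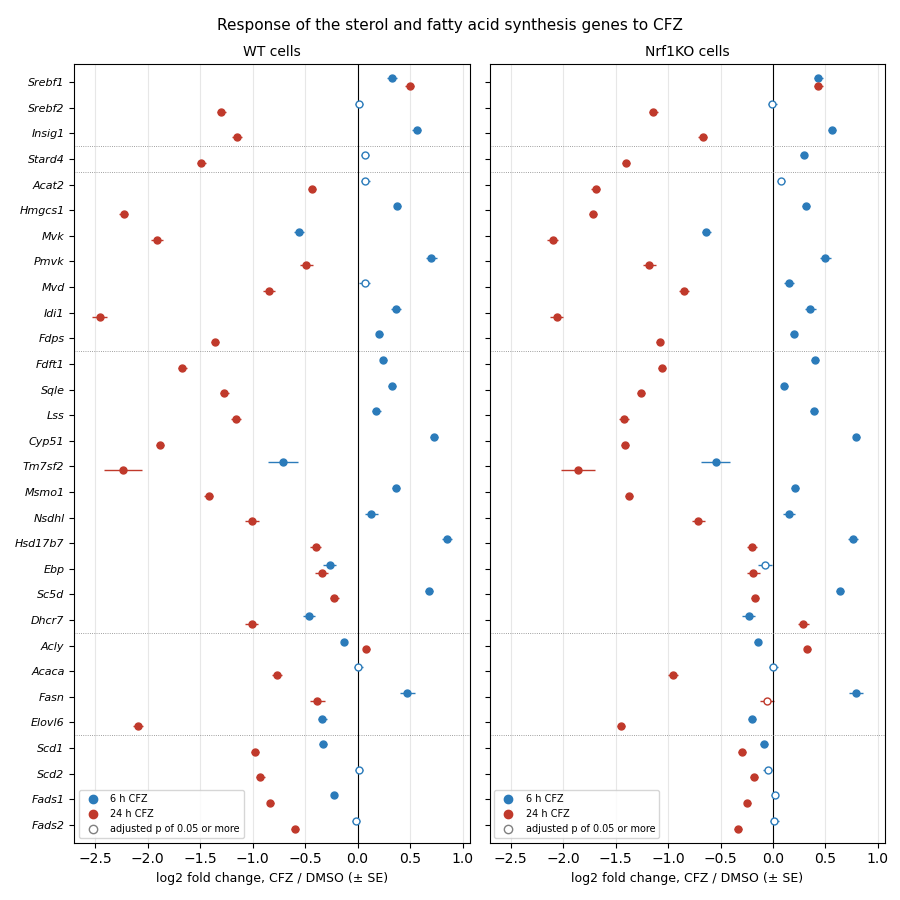
Log2 fold change of each of the 30 genes against DMSO (x axis, points with SE) in WT cells (left) and Nrf1KO cells (right) at 6 h (blue) and 24 h (red), with genes grouped by role between dotted lines and open points where the adjusted p was 0.05 or more. Nearly all red points lie left of 0, down to -2.46 for Idi1 in WT cells, while the blue points lie on both sides between -0.71 and 0.85.

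The regulators moved in different directions. Srebf1 rose and Srebf2 fell at 24 h in both lines, and Insig1 rose at 6 h and fell at 24 h. In WT cells Srebf1 read 70.7, 71.9 and 70.1 CPM with DMSO, 92.1, 87.5 and 87.4 CPM at 6 h and 96.98, 100.4 and 102 CPM at 24 h. In Nrf1KO cells Srebf1 read 78.1, 77.5 and 72.5 CPM with DMSO, 100.3, 102 and 104 CPM at 6 h and 109, 102 and 95.8 CPM at 24 h. All CFZ libraries lay above all DMSO libraries of the same line. The log2 fold change was 0.33 (SE 0.04, adjusted p = 9e-08) at 6 h and 0.50 (SE 0.04, adjusted p = 3.8e-12) at 24 h in WT, and 0.43 (SE 0.04, adjusted p = 3.2e-10) and 0.43 (SE 0.04, adjusted p = 5.1e-11) in Nrf1KO.

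In WT cells Srebf2 read 383, 374 and 379 CPM with DMSO, 396, 375 and 377 CPM at 6 h and 156, 148 and 157 CPM at 24 h. In Nrf1KO cells Srebf2 read 409, 409 and 381 CPM with DMSO, 391, 395 and 408 CPM at 6 h and 191, 187 and 167 CPM at 24 h. The 24 h libraries lay far below the others in both lines, while the 6 h and DMSO libraries overlapped. At 24 h Srebf2 was 2.46-fold lower in WT, with a log2 fold change of -1.30 (SE 0.04, adjusted p = 2.2e-23), and 2.2-fold lower in Nrf1KO, at -1.14 (SE 0.04, adjusted p = 3.6e-22). At 6 h the log2 fold changes of 0.01 and -0.0048 (SE 0.04, adjusted p = 0.92) did not pass the test; in WT the value turned to -0.09 and -0.12 and passed it under upper-quartile and library-size scaling, and in Nrf1KO it was -0.12 and passed it with library size (adjusted p = 0.0097).

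Insig1 encodes the retention protein of the SREBP precursors. In WT cells Insig1 read 136, 138 and 140.1 CPM with DMSO, 204, 201 and 205 CPM at 6 h and 62.2, 59.5 and 64.7 CPM at 24 h. In Nrf1KO cells Insig1 read 226, 239 and 251 CPM with DMSO, 344, 342 and 374 CPM at 6 h and 148, 145 and 158 CPM at 24 h. The Nrf1KO libraries lay above the WT libraries in each of the 3 treatments without overlap. Insig1 rose by 0.56 (SE 0.04, adjusted p = 2.5e-13) at 6 h in WT and 0.56 (SE 0.04, adjusted p = 7.8e-14) in Nrf1KO, and at 24 h its log2 fold change was -1.15 (SE 0.05, adjusted p = 2.2e-20) and -0.67 (SE 0.04, adjusted p = 5.3e-16). Between lines, Insig1 was higher in Nrf1KO by a log2 difference of 0.79 (SE 0.04, adjusted p = 1.1e-16) with DMSO, 0.79 (SE 0.04, adjusted p = 4.7e-17) at 6 h and 1.27 (SE 0.05, adjusted p = 4.9e-21) at 24 h.

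**Figure D2:**
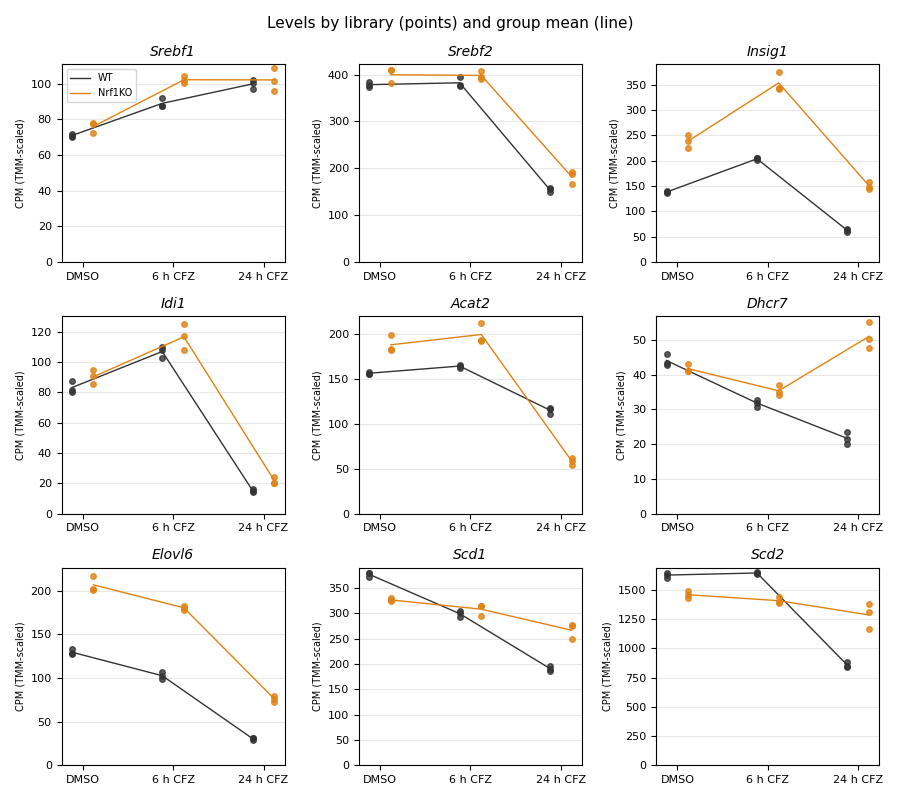
TMM-scaled CPM (y axis, from 0) in each library of WT (black) and Nrf1KO (orange) cells with DMSO, 6 h CFZ and 24 h CFZ for 9 of the genes; points are libraries and lines join group means. Dhcr7 falls in WT and ends above its DMSO level in Nrf1KO, Acat2 drops further in Nrf1KO than in WT, and Insig1 and Elovl6 lie higher in Nrf1KO throughout.

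Stard4 encodes a soluble carrier that moves cholesterol between membranes. In WT cells Stard4 read 101, 103 and 99.05 CPM with DMSO, 102, 110.0 and 106 CPM at 6 h and 35.3, 36.3 and 36.2 CPM at 24 h. In Nrf1KO cells Stard4 read 111, 109.9 and 112 CPM with DMSO, 139.7, 134 and 133 CPM at 6 h and 40.4, 43.6 and 41.5 CPM at 24 h. The 24 h libraries were the lowest in both lines, and the 6 h libraries lay above the DMSO libraries in Nrf1KO but overlapped them in WT. At 24 h Stard4 was 2.81-fold lower in WT and 2.65-fold lower in Nrf1KO, with log2 fold changes of -1.49 (SE 0.04, adjusted p = 1.2e-24) and -1.40 (SE 0.04, adjusted p = 8.4e-25). At 6 h the log2 fold change was 0.29 (SE 0.04, adjusted p = 1.5e-08) in Nrf1KO and 0.07 (SE 0.04, adjusted p = 0.079) in WT, and the difference between these responses was 0.22 (SE 0.05, adjusted p = 0.00085). In WT at 6 h the change passed the test without WT CFZ 6 h replicate 1, at 0.11.

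All 7 genes of the mevalonate pathway fell at 24 h in both lines, with medians of -1.36 in WT and -1.69 in Nrf1KO. Idi1, the isomerase that interconverts the isoprenoid building blocks, fell most in WT. In WT cells Idi1 read 80.4, 81.6 and 87.2 CPM with DMSO, 103, 108 and 110.0 CPM at 6 h and 16.2, 14.3 and 15.1 CPM at 24 h. In Nrf1KO cells Idi1 read 85.2, 91.02 and 94.5 CPM with DMSO, 117, 108 and 124.8 CPM at 6 h and 20.4, 20.4 and 24.4 CPM at 24 h. The 24 h libraries stood far below the rest and the 6 h libraries above the DMSO libraries in both lines. Idi1 was 5.52-fold lower at 24 h in WT, at -2.46 (SE 0.07, adjusted p = 9.8e-25), and 4.17-fold lower in Nrf1KO, at -2.06 (SE 0.06, adjusted p = 4.1e-24). Another gene model, Gm13502, shares 15% of the read-length stretches of Idi1, so some of its reads may have been assigned elsewhere.

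Hmgcs1, the synthase of HMG-CoA, rose at 6 h by 0.38 in WT and 0.32 in Nrf1KO and at 24 h was 4.68-fold lower in WT and 3.29-fold lower in Nrf1KO. Mvk, mevalonate kinase, already fell at 6 h, at a log2 fold change of -0.56 (SE 0.05, adjusted p = 2.6e-12) in WT and -0.64 (SE 0.04, adjusted p = 4.7e-14) in Nrf1KO, and reached -1.91 and -2.10 at 24 h. It was the single gene of the pathway that fell at 6 h in either line. Fdps, farnesyl pyrophosphate synthase, rose by 0.21 and 0.20 at 6 h and fell to -1.36 and -1.08 at 24 h. Other gene models hold 19.3% of its read-length stretches, and Gm43738 on the same strand overlaps 26.7% of its exonic bases. Mvd, the decarboxylase that makes isopentenyl pyrophosphate, stood at -0.84 and -0.85 at 24 h.

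Pmvk, phosphomevalonate kinase, had the largest difference in 6 h response between lines among these 7 genes. In WT cells Pmvk read 32.96, 34.3 and 34.5 CPM with DMSO, 57.4, 52.9 and 55.05 CPM at 6 h and 24.8, 23.6 and 24.4 CPM at 24 h. In Nrf1KO cells Pmvk read 36.6, 39.5 and 37.05 CPM with DMSO, 50.04, 52.98 and 57.9 CPM at 6 h and 16.1, 16.1 and 17.5 CPM at 24 h. The 6 h libraries were the highest and the 24 h libraries the lowest in both lines, and the 24 h libraries of Nrf1KO lay below those of WT. Pmvk rose at 6 h by 0.70 (SE 0.05, adjusted p = 1.6e-13) in WT and 0.50 (SE 0.05, adjusted p = 5.4e-10) in Nrf1KO, a difference of -0.20 (SE 0.07, adjusted p = 0.028) that no longer passed the test with DESeq2, with either other scaling, or without Nrf1KO DMSO replicate 2 or Nrf1KO CFZ 6 h replicates 1 or 2 (adjusted p from 0.051 to 0.122). At 24 h it fell, at -0.49 (SE 0.06, adjusted p = 7.5e-09) in WT and -1.18 (SE 0.06, adjusted p = 5.6e-18) in Nrf1KO, and this difference was -0.69 (SE 0.09, adjusted p = 3.6e-08).

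Acat2 encodes the cytosolic thiolase that makes acetoacetyl-CoA. In WT cells Acat2 read 155, 158 and 156 CPM with DMSO, 165, 165 and 163 CPM at 6 h and 111, 118 and 117 CPM at 24 h. In Nrf1KO cells Acat2 read 182, 184 and 198 CPM with DMSO, 193, 194 and 212 CPM at 6 h and 54.6, 61.7 and 59.1 CPM at 24 h. Nrf1KO libraries lay above WT libraries with DMSO and at 6 h and below them at 24 h, without overlap. The 24 h fold change was -0.44 (SE 0.04, adjusted p = 5e-11) in WT and -1.69 (SE 0.04, adjusted p = 1.1e-25) in Nrf1KO, on the log2 scale, or 1.35-fold and 3.22-fold lower. The difference between responses, -1.25 (SE 0.06, adjusted p = 2.6e-17), was the most negative of the 30 genes. Acat3, a related gene, shares 23.9% of the read-length stretches of Acat2 and held only 1 to 17 counts per library.

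All 11 genes that make squalene and carry it to cholesterol fell at 24 h in WT (median -1.16). So did 10 of the 11 in Nrf1KO (median -1.06), where Dhcr7 rose. At 6 h, 8 of the 11 rose in each line, where 35.6% of all genes did in WT and 34.5% in Nrf1KO. The 6 h rises of Lss and Nsdhl in WT did not pass the test with upper-quartile or library-size scaling. Those of Sqle and Nsdhl in Nrf1KO did not pass it with these scalings either. Cyp51, lanosterol demethylase, rose by 0.73 (SE 0.04, adjusted p = 4.8e-18) in WT and 0.79 (SE 0.04, adjusted p = 7.2e-19) in Nrf1KO, then stood 3.67-fold and 2.65-fold lower at 24 h. Fdft1, squalene synthase, followed a like course at 0.24 and -1.67 in WT and 0.40 and -1.06 in Nrf1KO. Ctsb, which lies on the opposite strand and overlaps 18.3% of the exonic bases of Fdft1, went the other way at 24 h, at 0.52 and 0.67. Whether the counting used strand was not given in the sources used here.

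Sqle, the epoxidase that makes the first oxygenated sterol precursor, and Lss, which closes the ring, fell at 24 h, at -1.27 and -1.16 in WT and -1.26 and -1.42 in Nrf1KO. At 6 h Sqle rose by 0.33 in WT and 0.11 in Nrf1KO, where it turned to -0.0043 with library size alone. Msmo1 and Nsdhl, which remove the methyl groups at the fourth carbon together with Hsd17b7, fell at 24 h, at -1.42 and -1.01 in WT and -1.37 and -0.71 in Nrf1KO. Nsdhl rose by 0.13 at 6 h in WT, which did not pass the test with DESeq2 and turned to -0.0023 with library size alone. Hsd17b7 had the largest rise of the 30 genes at 6 h in WT, 0.85 (SE 0.05, adjusted p = 1.7e-16), and fell at 24 h, at -0.40. Ebp, the sterol isomerase, changed little, at -0.27 and -0.34 in WT and -0.19 at 24 h in Nrf1KO.

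Tm7sf2 encodes a sterol reductase that shares its reaction with Lbr. In WT cells Tm7sf2 read 6.999, 6.61 and 6.36 CPM with DMSO, 4.02, 4.59 and 3.62 CPM at 6 h and 1.12, 1.68 and 1.302 CPM at 24 h. In Nrf1KO cells Tm7sf2 read 6.37, 6.49 and 7.36 CPM with DMSO, 4.402, 3.94 and 6.24 CPM at 6 h and 1.62, 2.22 and 1.71 CPM at 24 h. The 24 h libraries were the lowest in both lines and held 11 to 40 counts each, so this gene is the least precisely measured of the 30. Its log2 fold change at 24 h was -2.24 (SE 0.18, adjusted p = 3.9e-13) in WT and -1.86 (SE 0.16, adjusted p = 1.5e-12) in Nrf1KO. At 6 h it fell as well, at -0.71 and -0.55. Vps51, on the same strand, overlaps 12.1% of the exonic bases of Tm7sf2.

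Sc5d, the sterol desaturase before the last reduction, fell least of the 11 in WT at 24 h. In WT cells Sc5d read 79.5, 80.2 and 77.5 CPM with DMSO, 128, 128 and 124 CPM at 6 h and 68.01, 67.8 and 67.7 CPM at 24 h. In Nrf1KO cells Sc5d read 89.7, 90.6 and 97.5 CPM with DMSO, 141, 149 and 146 CPM at 6 h and 79.2, 83.5 and 85.1 CPM at 24 h. The 6 h libraries were the highest in both lines without overlap. Sc5d rose at 6 h by 0.68 (SE 0.04, adjusted p = 2.5e-16) and 0.64 (SE 0.04, adjusted p = 8.6e-16) and fell at 24 h, at -0.22 (SE 0.04, adjusted p = 1.4e-05) and -0.17 (SE 0.04, adjusted p = 2e-04), in WT and Nrf1KO.

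Dhcr7 makes cholesterol from its last precursor, reducing the remaining ring double bond. In WT cells Dhcr7 read 43.4, 42.9 and 45.9 CPM with DMSO, 31.9, 32.8 and 30.8 CPM at 6 h and 20.03, 21.4 and 23.6 CPM at 24 h. In Nrf1KO cells Dhcr7 read 41.04, 43.2 and 40.99 CPM with DMSO, 36.98, 34.2 and 34.9 CPM at 6 h and 55.1, 50.1 and 47.8 CPM at 24 h. In WT the 3 treatments stepped downwards without overlap, whereas in Nrf1KO the 6 h libraries were the lowest and the 24 h libraries the highest. The log2 fold change at 24 h was -1.01 (SE 0.06, adjusted p = 5.3e-16) in WT and 0.29 (SE 0.05, adjusted p = 5.7e-06) in Nrf1KO; the rise in Nrf1KO was 0.11 and did not pass the test with library size alone (adjusted p = 0.058). The difference between responses at 24 h was 1.30 (SE 0.08, adjusted p = 6.3e-15), the most positive of the 30 genes, and Dhcr7 was 2.33-fold higher in Nrf1KO than in WT at 24 h. At 6 h the difference of 0.23 (SE 0.08, adjusted p = 0.025) did not pass the test with DESeq2, nor when each of 6 libraries was left out in turn (WT DMSO replicates 1 and 3, WT CFZ 6 h replicates 1 and 3, Nrf1KO DMSO replicate 3 and Nrf1KO CFZ 6 h replicate 1).

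The 4 genes of fatty acid synthesis did not move together. Acly, which supplies cytosolic acetyl-CoA from citrate, moved little in WT and rose at 24 h in Nrf1KO. In WT cells Acly read 499, 510.5 and 506 CPM with DMSO, 465, 462 and 457 CPM at 6 h and 535, 534 and 534 CPM at 24 h. In Nrf1KO cells Acly read 512, 495 and 515 CPM with DMSO, 458, 447 and 473 CPM at 6 h and 645, 646 and 619 CPM at 24 h. The 6 h libraries were the lowest and the 24 h libraries the highest in both lines. At 24 h it rose by 0.08 (SE 0.03, adjusted p = 0.019) in WT, which turned to -0.06 and -0.02 under upper-quartile and library-size scaling and did not pass without WT DMSO replicate 1 (0.04, adjusted p = 0.31), and by 0.33 (SE 0.03, adjusted p = 3.2e-11) in Nrf1KO. Acaca, acetyl-CoA carboxylase, did not pass the test at 6 h, at 0.01 and 0.0042. With library size the values were -0.13 and -0.11 and passed it, as did WT with the upper quartile. It fell at 24 h, at -0.77 (SE 0.05, adjusted p = 7.1e-16) in WT and -0.95 (SE 0.05, adjusted p = 2.2e-18) in Nrf1KO. Other gene models, Gm42553 and Gm5182, share 21% of the read-length stretches of Acaca.

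Fasn, fatty acid synthase, had the largest difference in 6 h response of the 30 genes. In WT cells Fasn read 425, 444 and 399.7 CPM with DMSO, 607, 562 and 594 CPM at 6 h and 339, 315 and 318 CPM at 24 h. In Nrf1KO cells Fasn read 517, 413 and 398 CPM with DMSO, 818, 760.2 and 713 CPM at 6 h and 476, 428 and 371 CPM at 24 h. The 6 h libraries were the highest in both lines, and the DMSO and 24 h libraries overlapped in Nrf1KO but not in WT. Fasn rose at 6 h by 0.47 (SE 0.07, adjusted p = 5.8e-07) in WT and 0.79 (SE 0.07, adjusted p = 2e-11) in Nrf1KO, a difference of 0.32 (SE 0.10, adjusted p = 0.012) that did not pass the test with DESeq2 (adjusted p = 0.0876), without WT CFZ 6 h replicate 2 (0.26, adjusted p = 0.0588) or without Nrf1KO DMSO replicate 3 (0.24, adjusted p = 0.0571). At 24 h the log2 fold change was -0.39 (SE 0.07, adjusted p = 1.3e-05) in WT and -0.06 (SE 0.07, adjusted p = 0.45) in Nrf1KO; the latter depended on the processing. It passed the test at -0.17 with upper-quartile scaling, at -0.24 with library size, at -0.11 with no expression filter and at -0.18 without Nrf1KO CFZ 24 h replicate 1. The 24 h difference between lines did not pass with DESeq2 (adjusted p = 0.0529).

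Elovl6 elongates palmitate to stearate. In WT cells Elovl6 read 127, 133 and 129 CPM with DMSO, 103, 98.7 and 107 CPM at 6 h and 30.8, 31.2 and 29.4 CPM at 24 h. In Nrf1KO cells Elovl6 read 201, 202 and 217 CPM with DMSO, 178, 180.0 and 183 CPM at 6 h and 79.5, 72.7 and 75.98 CPM at 24 h. Levels stepped downwards from DMSO to 6 h to 24 h in both lines without overlap, and every Nrf1KO library lay above every WT library of the same treatment. At 24 h Elovl6 was 4.26-fold lower in WT and 2.73-fold lower in Nrf1KO, with log2 fold changes of -2.09 (SE 0.05, adjusted p = 2.8e-27) and -1.45 (SE 0.04, adjusted p = 2e-25), and the difference between them was 0.64 (SE 0.06, adjusted p = 3.3e-10). Elovl6 was higher in Nrf1KO by 0.68 (SE 0.04, adjusted p = 3.4e-16) with DMSO, 0.81 at 6 h and 1.32 at 24 h.

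All 4 desaturases fell at 24 h in both lines, with a median of -0.88 in WT and -0.27 in Nrf1KO, and all 4 fell less in Nrf1KO by the test of the difference. Scd1 and Scd2 place the first double bond in saturated acyl-CoAs. In WT cells Scd1 read 379, 371 and 380.1 CPM with DMSO, 293, 300.1 and 305 CPM at 6 h and 196, 186 and 190.3 CPM at 24 h. In Nrf1KO cells Scd1 read 323, 326 and 329.6 CPM with DMSO, 314, 295 and 314 CPM at 6 h and 274, 276 and 248 CPM at 24 h. In WT the treatments stepped downwards without overlap, while in Nrf1KO all 24 h libraries lay below the others by a smaller step. The fall at 24 h was -0.98 (SE 0.04, adjusted p = 2.5e-21) in WT and -0.29 (SE 0.04, adjusted p = 1e-08) in Nrf1KO, with a difference of 0.69 (SE 0.05, adjusted p = 8.1e-13); at 6 h the difference was 0.25 (SE 0.05, adjusted p = 0.00027). In Nrf1KO at 6 h the fall at -0.08 (adjusted p = 0.043) did not pass when each of 4 libraries was left out in turn, Nrf1KO DMSO replicates 1, 2 and 3 and Nrf1KO CFZ 6 h replicate 2.

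In WT cells Scd2 read 1648, 1607 and 1629 CPM with DMSO, 1650.0, 1651 and 1636 CPM at 6 h and 847, 841 and 881 CPM at 24 h. In Nrf1KO cells Scd2 read 1490.0, 1433 and 1456 CPM with DMSO, 1438, 1393 and 1395 CPM at 6 h and 1377, 1316 and 1168 CPM at 24 h. Per kilobase of exon, Scd2 had the highest level of the 30 genes in WT cells with DMSO, at 298 RPKM, the depth-scaled count divided by exon length, and Tm7sf2 the lowest at 1.51 RPKM. The WT 24 h libraries of Scd2 stood far below the WT DMSO libraries and below all Nrf1KO 24 h libraries. The fall at 24 h was -0.93 (SE 0.04, adjusted p = 6.3e-20) in WT and -0.18 (SE 0.04, adjusted p = 1e-04) in Nrf1KO, and the difference of 0.74 (SE 0.06, adjusted p = 6.7e-13) was the largest of the 4 desaturases. At 6 h Scd2 did not pass the test in either line, at 0.02 and -0.05; under upper-quartile and library-size scaling the values were -0.09 and -0.12 in WT and -0.13 and -0.16 in Nrf1KO and passed it, and without the expression filter the value in Nrf1KO was -0.10 and passed it.

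Fads1 and Fads2 desaturate polyunsaturated fatty acids nearer the carboxyl end. In WT cells Fads2 read 136, 134 and 136 CPM with DMSO, 132, 137 and 132 CPM at 6 h and 92.0, 90.3 and 87.1 CPM at 24 h. In Nrf1KO cells Fads2 read 97.4, 103 and 101 CPM with DMSO, 103, 101 and 99.04 CPM at 6 h and 83.2, 81.5 and 73.7 CPM at 24 h. The 24 h libraries were the lowest in both lines, and Nrf1KO libraries lay below WT libraries in each treatment. Fads2 fell at 24 h, at -0.59 (SE 0.04, adjusted p = 4.9e-15) in WT and -0.34 (SE 0.04, adjusted p = 4.2e-09) in Nrf1KO. Fads1 fell, at -0.83 (SE 0.03, adjusted p = 5.3e-21) and -0.25 (SE 0.03, adjusted p = 2.5e-08), and at 6 h it fell in WT but did not pass the test in Nrf1KO, at -0.23 against 0.01 (-0.10 with library size, which passed it), with a difference of 0.24 (SE 0.04, adjusted p = 7.6e-05).

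Most of the genes were also lower when 24 h was compared directly with 6 h. This comparison uses the same 24 h libraries and follows from the responses at 6 h and 24 h given above, so it is not independent of them. In WT cells 27 of the 30 genes were lower at 24 h than at 6 h and 2 were higher (35.4% and 36.9% of all genes), with a median of -1.22 against 0.01 over all genes. In Nrf1KO cells 26 were lower and 2 were higher (38.3% and 38.7% of all genes), with a median of -1.18 against 0.0018. Idi1 changed most, at -2.83 (SE 0.07, adjusted p = 7.8e-26) in WT and -2.42 (SE 0.06, adjusted p = 2.5e-25) in Nrf1KO, and Hmgcs1 and Cyp51 followed in WT at -2.61 and -2.60. The exceptions were Srebf1 and Acly, which were higher at 24 h in WT at 0.17 and 0.21, and Dhcr7 and Acly, which were higher in Nrf1KO at 0.52 and 0.47. Ebp did not pass the test in either line, nor did Srebf1 in Nrf1KO. In Nrf1KO, Ebp passed it at -0.15 with upper-quartile scaling (adjusted p = 0.049) and at -0.18 with library size (adjusted p = 0.0134). By at least 1.5-fold, 0 were higher and 24 lower in WT (12.7% and 15.1% of all genes), and 0 were higher and 22 lower in Nrf1KO (16% and 18.1%).

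Between lines, Insig1 and Elovl6 were higher in Nrf1KO in all 3 treatments, Dhcr7 was higher at 24 h, and Acat2 and Pmvk were lower at 24 h. With DMSO, 16 of the 30 genes were higher and 5 lower in Nrf1KO (25.7% and 29.1% of all genes), with a median log2 difference of 0.09 against -0.02. At 6 h, 17 were higher and 2 lower (30.5% and 30.8% of all genes), with a median of 0.17. The counts had moved to 22 higher and 5 lower by 24 h (35.6% and 36.4% of all genes), the median was 0.34, and 3 were at least 2-fold higher (6.71% of all genes): Insig1, Elovl6 and Dhcr7. All 7 genes of the mevalonate pathway were higher in Nrf1KO with DMSO, by 0.08 to 0.41, and the 5 that were lower there were the 4 desaturases and Ebp. Of the 7, Hmgcs1, Idi1 and Fdps did not pass the test without Nrf1KO DMSO replicate 3 (adjusted p = 0.113, 0.197 and 0.174), nor did Pmvk without Nrf1KO DMSO replicate 2 (0.0786) or Idi1 with DESeq2 (0.0598). Hmgcs1 and Fdps also failed it without WT DMSO replicate 3, Fdps without Nrf1KO DMSO replicate 2, and Idi1 without WT DMSO replicates 1 or 2 or Nrf1KO DMSO replicate 2. The lower level of Ebp did not pass with DESeq2 (adjusted p = 0.16), library size (0.134), no expression filter (0.065) or the compared groups alone (0.0665), nor without WT DMSO replicates 1 or 3 or Nrf1KO DMSO replicate 3. With each library left out in turn, 12 to 16 genes were higher and 4 to 6 lower with DMSO, with the 12 reached without Nrf1KO DMSO replicate 2. At 24 h the 5 lower genes were Acat2, Pmvk, Lss, Acaca and Fads2. These comparisons of 1 line with another cannot separate the knockout from other differences between the lines. Library-size scaling raised the share of all called genes that were higher in Nrf1KO from 46.9% to 57.7% with DMSO and from 49.8% to 60.8% at 6 h.

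The response to CFZ was compared between lines as an interaction, the log2 fold change in Nrf1KO minus that in WT. At 6 h, 8 of the 30 genes had a higher and 3 a lower response in Nrf1KO (19.8% and 18.4% of all genes), with a median difference of 0.02; the higher count was 5 with DESeq2 and when either WT CFZ 6 h replicate 2 or 3 was left out, and the lower count was 1 with upper-quartile scaling and without Nrf1KO CFZ 6 h replicate 2. At 24 h, 17 had a higher and 5 a lower response (29.7% and 30% of all genes), with a median of 0.25 against 0.0049 over all genes. The lower count was 3 when WT DMSO replicate 3 was left out. Since most of the genes fell at 24 h, a higher response was a smaller fall for all of the 17 except Dhcr7, which rose in Nrf1KO, Fasn, whose value in Nrf1KO did not pass the test, and Acly, which rose in both lines. Among the genes that make squalene and carry it to cholesterol, 5 responses were higher and 1, that of Lss, was lower. In the mevalonate pathway 3 were higher (Hmgcs1, Idi1 and Fdps) and 3 lower (Acat2, Pmvk and Mvk). That of Mvk did not pass with DESeq2, with upper-quartile scaling or without the expression filter.

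By at least 1.5-fold, 2 genes were higher and 0 lower in Nrf1KO with DMSO (6.02% and 4.01% of all genes), 2 and 0 at 6 h (9.18% and 6.88%), and 7 and 1 at 24 h (14.1% and 12.9%). No 6 h response differed between lines by this much (4.24% and 4.34% of all genes were higher and lower). At 24 h, 6 responses were higher and 2 lower by at least 1.5-fold (10.7% and 11.3%).

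**Figure D3:**
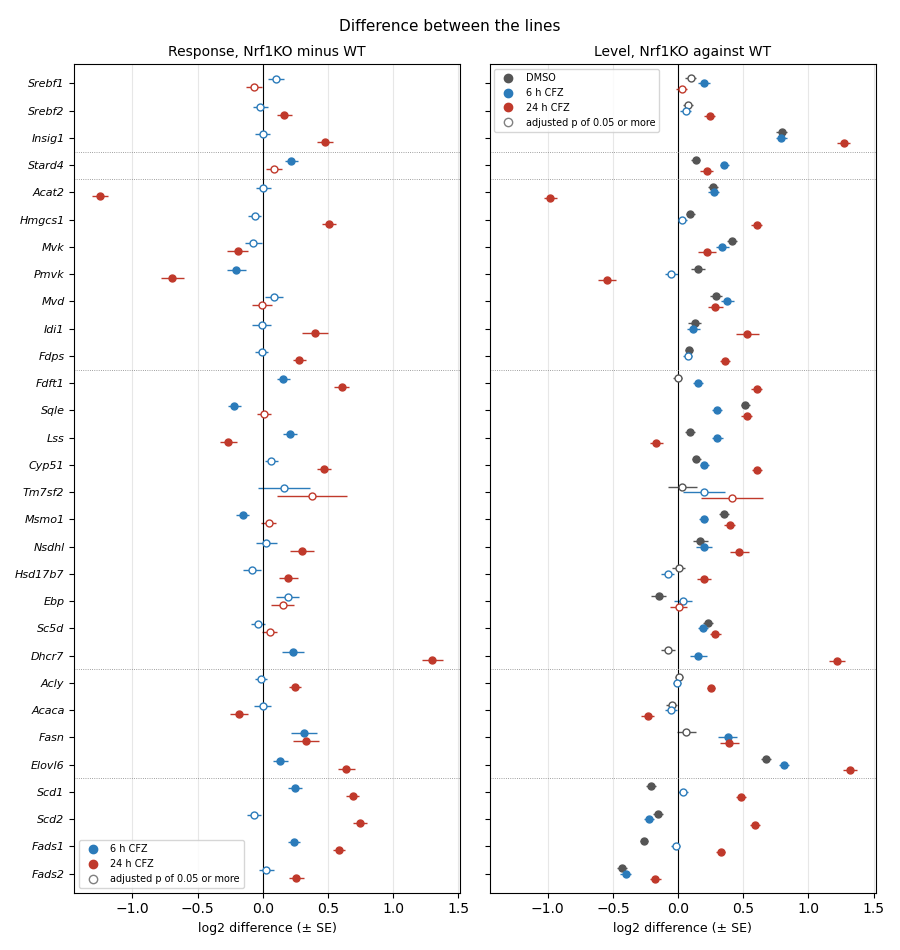
Left, the log2 fold change in Nrf1KO minus that in WT (x axis, with SE) at 6 h (blue) and 24 h (red) for the 30 genes; right, the log2 difference in level between Nrf1KO and WT with DMSO (grey), at 6 h and at 24 h. Open points had an adjusted p of 0.05 or more. At 24 h Acat2 (-1.25) and Dhcr7 (1.30) lie at the ends, and the 4 desaturases at the bottom all lie right of 0.

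A list of 47 other genes of the same pathways, of which 41 could be tested, moved in both directions at 24 h. In WT 15 rose and 22 fell (43.2% and 40.5% of all genes), with a median of -0.20. In Nrf1KO 18 rose and 20 fell (44.4% and 41.1% of all genes), with a median of -0.09. At 6 h, 21 rose and 13 fell in WT (35.6% and 36.2% of all genes). In Nrf1KO 17 rose and 14 fell (34.5% and 35.0% of all genes). The 3 highest in WT at 24 h were Npc1, which exports cholesterol from lysosomes, at 1.82 (SE 0.05, adjusted p = 1.5e-24), Soat1, which esterifies cholesterol for storage, at 1.39 (SE 0.04, adjusted p = 9.1e-24), and Pdss2, a subunit of the enzyme that makes the ubiquinone side chain, at 1.32 (SE 0.06, adjusted p = 9.7e-19). In Nrf1KO they stood at 2.08, 1.37 and 0.11, the last of which did not pass the test. Among the lowest in WT at 24 h were Acss2, which makes acetyl-CoA from acetate, at -2.53 (SE 0.11, adjusted p = 6.7e-20), and Acsl3, an acyl-CoA synthetase, at -1.55 (SE 0.05, adjusted p = 2.6e-24). In Nrf1KO these were -2.55 and -1.13.

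The largest differences in 24 h response among the other pathway genes were those of Abca1, the cholesterol exporter, at 1.23 (SE 0.14, adjusted p = 5.7e-09), Pdss2 at -1.21 (SE 0.09, adjusted p = 4.4e-13), and Scarb1, a lipoprotein receptor, at -0.90 (SE 0.05, adjusted p = 2.6e-15). In WT cells Abca1 read 8.11, 7.56 and 8.22 CPM with DMSO, 3.41, 2.77 and 3.46 CPM at 6 h and 6.201, 6.12 and 6.51 CPM at 24 h. In Nrf1KO cells Abca1 read 5.06, 4.96 and 5.17 CPM with DMSO, 4.77, 3.78 and 3.96 CPM at 6 h and 9.296, 9.65 and 9.26 CPM at 24 h. In WT the 6 h libraries were the lowest, and in Nrf1KO the 24 h libraries were the highest. Abca1 fell in WT, at -1.31 at 6 h and -0.34 at 24 h, and in Nrf1KO it rose by 0.89 at 24 h. Scarb1 fell, at -0.24 in WT and -1.15 in Nrf1KO at 24 h.

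**Figure D4:**
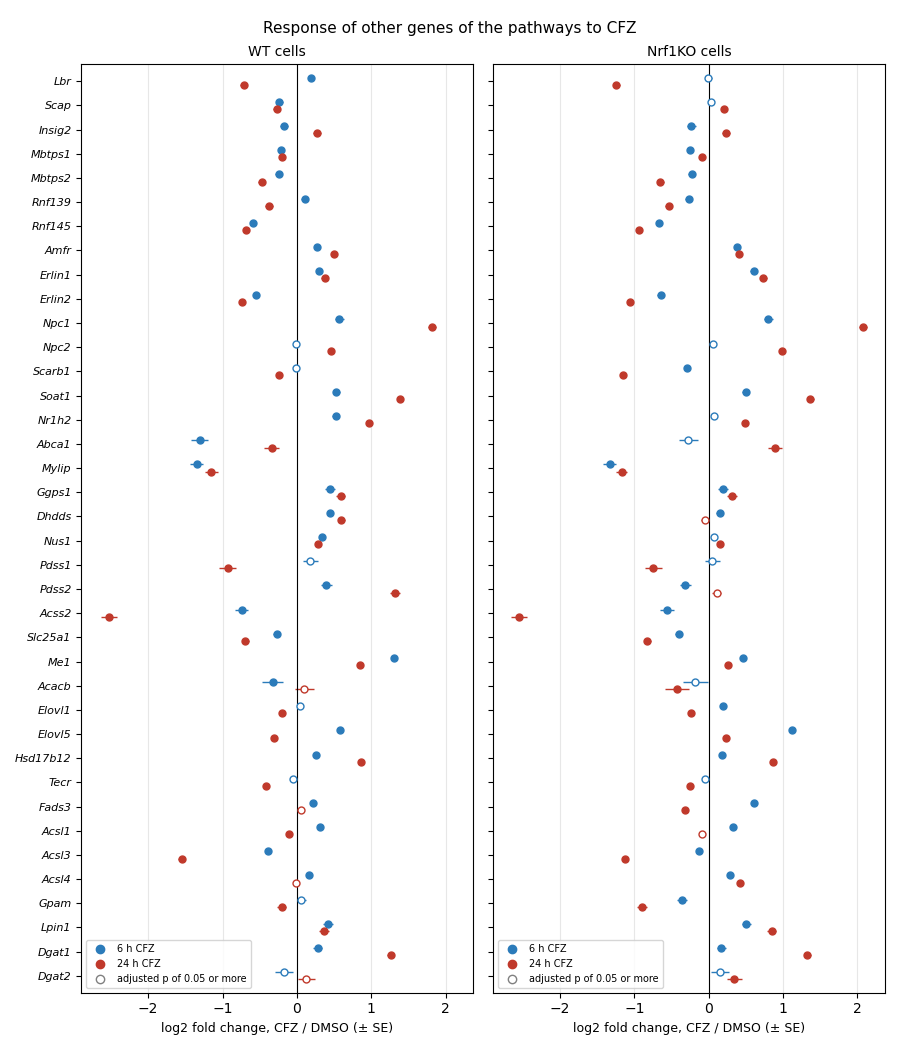
Log2 fold change against DMSO (x axis, with SE) of 38 of the 41 other pathway genes that could be tested, in WT (left) and Nrf1KO (right) cells at 6 h (blue) and 24 h (red); open points had an adjusted p of 0.05 or more. Npc1 and Soat1 lie to the right at 24 h in both lines and Acss2 and Acsl3 to the left.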

How the data were processed

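RNA from NIH-3T3 cells was sequenced by the authors from stranded mRNA libraries, and the deposited table holds raw read counts per gene for 18 libraries. The processing notes name STAR and DESeq2; the genome build, annotation and use of strand in counting were not given in the sources used here. Groups were taken from the labels, no columns of other samples were present, and Msmo1 was listed under its older symbol Sc4mol. The study describes the 3 replicates of a group as biological; how they were grown apart was not stated, and p-values measure the spread between these libraries.

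Counts were tested with edgeR 4.0.16 in R 4.3.3: filterByExpr (minimum count 10, minimum total 15), TMM scaling, 1 quasi-likelihood model of the 6 groups, 11 comparisons, and Benjamini-Hochberg adjustment over 11762 genes with a threshold of 0.05. SEs were derived from the F statistic. The 30 genes and the lists were chosen with earlier results of these data known. Values in every library are given for the regulators and, per role, for the highest and lowest gene in WT at 24 h and the genes with the largest interactions; of the other pathway genes, the 3 highest, the 3 lowest and the 3 largest interactions at 24 h are named, except 1 gene not reported here. Deviations from the group means were not shared by libraries with 1 replicate number (correlation 0.0136 on average, from -0.0494 to 0.0972 over 45 pairs), so the numbers were not taken to pair libraries. Replicates of a group differed by more than sampling noise (chi-square per degree of freedom from 1.438 to 8.469). The spread was still small, with a common coefficient of variation of 3.13% in the model. Within groups, log CPM correlated at 0.994 or more. Small differences could therefore pass the test. Scripts were tested on simulated data. Alternatives were DESeq2 1.42.0, other scalings, filters and models, a minimum fold of 1.5, a replicate block, and each library left out. Overlaps and shared stretches of read length came from GENCODE (GRCm38), and RPKM divides by its exon bases.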

Additional observations from a re-analysis of the deposited data

Results flagged for a closer look

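The results listed here are the genes whose response to CFZ differed between Nrf1KO and WT cells by the edgeR test of the difference itself (log2 fold change in Nrf1KO minus that in WT, adjusted p under 0.05). At 6 h there were 11. Of these, 8 were higher and 3 lower in Nrf1KO, against 19.8% and 18.4% of all genes tested. Positive differences were measured for Stard4 (0.22), Fdft1 (0.16), Lss (0.21), Dhcr7 (0.23), Fasn (0.32), Elovl6 (0.14), Scd1 (0.25) and Fads1 (0.24), and negative ones for Pmvk (-0.20), Sqle (-0.22) and Msmo1 (-0.15). The 6 h difference of Fdft1 did not pass without the expression filter or without WT CFZ 6 h replicates 2 or 3 (adjusted p = 0.0603, 0.0568 and 0.0968), and that of Msmo1 did not pass with upper-quartile scaling or without Nrf1KO DMSO replicate 3 or Nrf1KO CFZ 6 h replicate 2 (0.0735, 0.112 and 0.0601). Those of Pmvk, Dhcr7 and Fasn also did not pass under at least 1 alternative. The 6 h difference of Elovl6 did not pass with DESeq2, without the expression filter, or when 11 of the 12 libraries compared were left out in turn.

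At 24 h there were 22. Among the regulators, the differences were 0.17 for Srebf2 and 0.48 for Insig1. In the mevalonate pathway they were -1.25 for Acat2, 0.51 for Hmgcs1, -0.19 for Mvk, -0.69 for Pmvk, 0.40 for Idi1 and 0.28 for Fdps. From squalene synthase onwards they were 0.61 for Fdft1, -0.26 for Lss, 0.47 for Cyp51, 0.30 for Nsdhl, 0.20 for Hsd17b7 and 1.30 for Dhcr7. In fatty acid synthesis they were 0.25 for Acly, -0.18 for Acaca, 0.33 for Fasn and 0.64 for Elovl6. The desaturases stood at 0.69 for Scd1, 0.74 for Scd2, 0.59 for Fads1 and 0.26 for Fads2. The differences of Srebf2, Mvk, Hsd17b7, Acaca and Fasn at 24 h did not pass under at least 1 alternative.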

How the results depend on the processing

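Of 330 pairs of gene and comparison, 277 kept their call under every alternative other than the minimum fold of 1.5, which was applied to the counts, and 53 did not. The median log2 fold change of the 30 genes was -0.00809 (WT 6 h), -1.15 (WT 24 h), 0.0823 (Nrf1KO 6 h), -1.12 (Nrf1KO 24 h) and 0.222 (Nrf1KO against WT at 6 h) with upper-quartile scaling. With library size alone it was -0.0312, -1.12, 0.044, -1.19 and 0.241 for these, -1.25 for Nrf1KO 24 h against 6 h, 0.141 between lines with DMSO and 0.174 for the 24 h interaction. With no expression filter it was -1.07 in WT and -1.06 in Nrf1KO at 24 h and 0.107 in Nrf1KO at 6 h. Under upper-quartile scaling 4 genes turned in sign in WT: Srebf2 (-0.0943), Acaca (-0.103) and Scd2 (-0.0933) at 6 h and Acly (-0.0559) at 24 h. With library size these were -0.118, -0.126, -0.117 and -0.0243, joined by Nsdhl in WT at 6 h (-0.00227) and by Sqle (-0.00431), Acaca (-0.108), Fads1 (-0.0979) and Fads2 (-0.0984) in Nrf1KO at 6 h. Both scalings also moved the median of all genes, and the cause of these turns in sign was not tested.

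Only 1 gene was higher in WT at 24 h under either scaling, without the filter and in the model of the compared groups, 12 were lower in Nrf1KO at 6 h with library size, 1 had a lower 6 h response with upper-quartile scaling, and 5 had a higher one with DESeq2. Over all genes each setting tested, 4245 (upper quartile), 4447 (library size), 4900 (no filter) and 4844 (compared groups) were higher in WT at 24 h. With library size, 5298 of all genes were lower in Nrf1KO at 6 h. A lower 6 h response was called for 1816 genes with upper-quartile scaling, and a higher one for 1913 with DESeq2. Among edgeR calls, a minimum fold of 1.5 left 4 higher and 1 lower at 6 h in each line, 0 higher at 24 h against DMSO or 6 h in each line with 22 (WT) and 19 (Nrf1KO) lower against DMSO, 2 higher and 0 lower between lines with DMSO and at 6 h, 7 and 1 at 24 h, 0 and 0 for the 6 h interaction, and 6 and 2 for that at 24 h. The replicate block left the median at -1.01 in WT at 24 h and changed 1 call, that of Fdps between lines at 6 h (0.07, adjusted p = 0.0422).

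With each library left out in turn, the medians ran from -1.08 to -0.985 (WT 24 h), 0.105 to 0.2 (Nrf1KO 6 h), -1.06 to -0.987 (Nrf1KO 24 h), -1.27 to -1.17 (WT 24 h against 6 h), -1.21 to -1.13 (the same in Nrf1KO) and 0.129 to 0.192 (between lines at 6 h). The counts ran from 1 to 2 higher in WT at 24 h, 5 to 8 higher and 1 to 3 lower for the 6 h interaction, and 3 to 5 lower for the 24 h interaction. The cause of these changes was not tested. Depth limits Tm7sf2 most, with 11 to 191 counts per library.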
